A study of Homo sapiens with 6 samples.

Results

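The Hedgehog pathway genes described here are 9 named genes of the pathway: the ligand SHH, the receptor PTCH1, the ligand-binding antagonist HHIP, the co-receptors BOC and GAS1, the transducer SMO and the transcription factors GLI1, GLI2 and GLI3. They were chosen by gene symbol, with earlier results of these data known, and all 9 were found among the 26485 symbols of the count tables. Counts come from AF22, an established line of human neural stem cells. Control cells are labelled shControl with a wild-type genotype, where shControl stands for a control short hairpin RNA. In the other group COMMD3 was knocked down together with COMMD3-BMI1, a readthrough transcript of COMMD3 and its neighbour BMI1. Neither the reagent nor any clone is described. There are 3 libraries in each of the 2 groups, and no treatment is named for either. The labels do not call the replicates separate cultures. The p-values therefore reflect the spread among these 6 libraries alone, and that spread may be technical.

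Hedgehog ligands bind PTCH1, a membrane protein that otherwise holds SMO inactive, and BOC, GAS1 and CDON help to present the ligand. Freed SMO acts at the primary cilium to turn the GLI proteins from repressors into activators of transcription. GLI2 is the main activator and GLI3 the main repressor, while GLI1, PTCH1 and HHIP are themselves targets of the pathway. In the neural tube, Sonic hedgehog from the notochord and floor plate specifies ventral progenitors, and it supports the division of many neural progenitors.

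Libraries held between 7294687 and 11579849 counts. COMMD3, the targeted gene, checks the labels: the control libraries, in replicate order, had 31.68, 29.71 and 27.60 CPM (counts scaled to library size), and the knockdown libraries 12.88, 11.29 and 10.49 CPM. Its fitted level was 2.58-fold lower in knockdown (log2 fold change −1.37, SE 0.0996, edgeR adjusted p = 2.34e-12). COMMD3-BMI1 was listed at 0 in all 6 libraries, and all of its annotated exon bases are shared with COMMD3 or BMI1. BMI1 did not pass, with −0.07 on the log2 scale (edgeR adjusted p = 0.206). Of the neural stem cell markers, 12 of 13 were expressed enough to be tested, of which 4 fell and 1 rose. Among all tested genes, 18.1% fell and 15.3% rose. SOX2 was at 287.9 ± 6.43 and 259.9 ± 8.20 CPM and NES at 659.5 ± 27.2 and 703.4 ± 36.2 CPM in control and knockdown (SD, n = 3 each). HES5, the remaining marker, was listed at 0.

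HHIP, PTCH1 and GLI2 fell in knockdown cells, by edgeR, DESeq2 and limma-voom, and 0 of the 8 testable genes rose by any of them. In the edgeR quasi-likelihood fit over all 13632 tested genes, with a Benjamini-Hochberg adjusted p under 0.05 as the threshold, these 3 were called among the 8 members that could be tested. SHH had too few counts for the test. The background is high: 33.3% of all tested genes were called, 18.1% as lower and 15.3% as higher. With 3 of 8 called (37.5%), the members are near the share called in either direction, so what follows describes single genes. The 3 control libraries lay above the 3 knockdown libraries for the same 3 members, against 22.7% of all tested genes with all controls above and 44.3% with no overlap in either direction. The median log2 fold change of the 8 members was −0.17, beside 0.00 for all tested genes. Since RNA came from whole cultures, fewer cells that express a gene and less RNA per cell cannot be told apart.

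**Figure D1:**
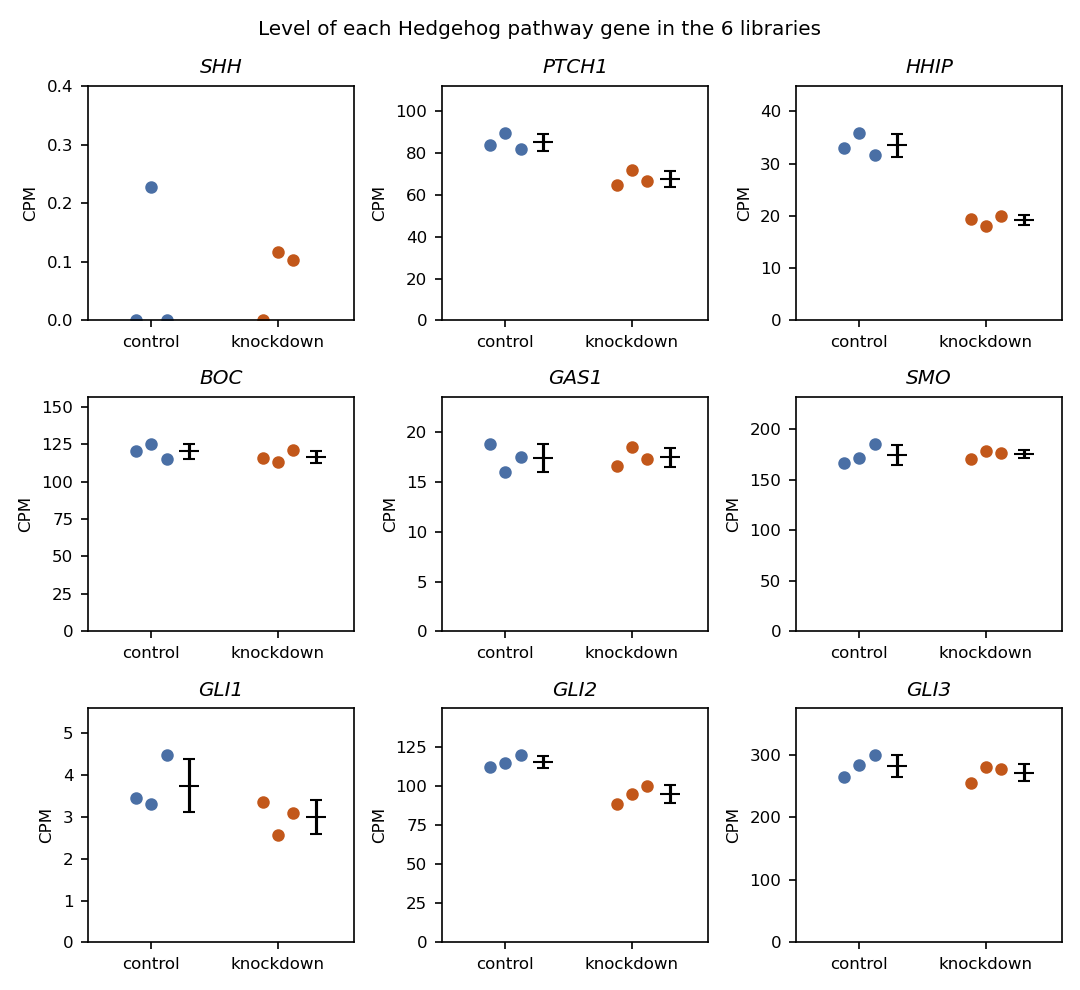
Level of each of the 9 Hedgehog pathway genes in CPM (counts scaled to library size, y axis from 0, own scale per gene) in 3 control (blue) and 3 knockdown (orange) libraries; black bars are mean ± SD, left out for SHH, which had 4 counts in all. The knockdown points lie below all control points for PTCH1, HHIP and GLI2, and the groups overlap for the other 6 genes.

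The ligand was almost absent. Counts of SHH were 0, 2 and 0 in the control libraries and 0, 1 and 1 in the knockdown libraries, here and below in replicate order. A library with no count allows up to between 0.259 and 0.42 CPM by counting error alone, taking 3 counts as the limit. The other ligands were also rare: IHH had 8 counts over the controls and 3 over the knockdowns, and DHH had 10 and 13. Neither passed the filter on low counts, and no difference in ligand transcripts was detectable at this depth. The pooled ratio, knockdown over control, was 1.28 for DHH and 0.37 for IHH, with 95% exact counting intervals from 0.519 to 3.27 and from 0.0632 to 1.54.

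HHIP, which binds Hedgehog ligands at the cell surface and keeps them from the receptor, changed most among the members. The control libraries had 32.98, 35.88 and 31.67 CPM, from 382, 314 and 226 counts. The knockdown libraries had 19.37, 18.16 and 19.95 CPM, from 185, 156 and 194 counts. The lowest control library was well above the highest knockdown library, and the spread within each group was small. The fitted level was 1.75-fold lower in knockdown, or −0.81 on the log2 scale (SE 0.0838, 95% interval −0.977 to −0.634, edgeR adjusted p = 6.08e-09). Of the 13632 tested genes, 147 had a lower log2 fold change.

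In GRCh38 (GENCODE v29), HHIP (ENSG00000164161) is a plus-strand gene of chromosome 4, positions 144646021 to 144745271. Genes on the other strand, HHIP-AS1 (noncoding) among them, cover 358 of the 12074 exon bases of HHIP (2.97%). HHIP-AS1, named after its values were seen, was at 6.993, 6.970 and 6.866 CPM in control and 5.445, 5.121 and 5.143 CPM in knockdown (−0.41 on the log2 scale, SE 0.156, edgeR adjusted p = 0.0439). Its libraries did not overlap either, but its call was lost by DESeq2 (adjusted p = 0.193), by limma-voom (0.0502) and without any 1 of the 6 libraries (edgeR adjusted p from 0.065 to 0.107). It was also lost with upper-quartile scaling, library-size scaling or no filter (edgeR adjusted p = 0.0511, 0.0579 and 0.0541). Under all of these settings its log2 fold change lay between −0.43 and −0.39. The strand setting of the counting is not given, so reads from the shared bases of the 2 genes may not have been told apart.

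PTCH1 encodes the Hedgehog receptor, and its transcript is a textbook readout of pathway activity. Its level was 84.09, 89.70 and 81.97 CPM in the control libraries and 64.71, 72.16 and 66.45 CPM in the knockdown libraries. Every knockdown library was below every control library. The level was 1.26-fold lower in knockdown (log2 fold change −0.33, SE 0.053, 95% interval −0.443 to −0.226, edgeR adjusted p = 1.05e-05). This interval and that of HHIP do not overlap. PTCH1 (ENSG00000185920) is a minus-strand gene of chromosome 9, positions 95442980 to 95517057.

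The promoters of these 2 called feedback genes were searched for GACCACCCA, the consensus that GLI proteins are known to bind, on both strands of windows from 250 bases before to 50 bases after each transcript start (RefSeq, GRCh38.p14). The table held windows for 7 of the 9 members, and not for GLI1 or GLI3. The sequences below are shown because they are the receptor window with the match and the HHIP window without one. Capitals mark the match, which is printed as TGGGTGGTC because GACCACCCA lies on the opposite strand. The PTCH1 window belongs to 1 of 5 listed starts of that gene.
PTCH1, chr9:95509217-95509516, minus strand: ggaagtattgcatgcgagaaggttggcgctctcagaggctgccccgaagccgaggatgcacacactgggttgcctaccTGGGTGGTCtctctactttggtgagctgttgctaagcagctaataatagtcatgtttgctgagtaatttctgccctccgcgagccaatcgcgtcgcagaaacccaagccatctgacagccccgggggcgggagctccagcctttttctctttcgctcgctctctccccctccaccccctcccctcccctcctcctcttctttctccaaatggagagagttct
HHIP, chr4:144645906-144646205, plus strand: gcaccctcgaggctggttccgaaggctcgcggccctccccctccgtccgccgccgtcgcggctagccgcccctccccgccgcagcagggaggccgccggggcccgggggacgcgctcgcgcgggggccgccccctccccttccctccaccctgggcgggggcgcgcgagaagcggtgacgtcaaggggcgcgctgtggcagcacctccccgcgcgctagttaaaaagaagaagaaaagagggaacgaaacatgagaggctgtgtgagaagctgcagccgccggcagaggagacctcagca

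The match in PTCH1 begins 172 bases before that start, at chromosome 9 from 95509430 to 95509438. Of the 7 members with windows, PTCH1 was the single one with a match, beside 0.297% of all 27305 genes with a window. Counted by window, 0.236% of all 35116 windows hold one. The counts per gene do not say which of the PTCH1 starts was in use, so they do not tie the lower level to this window. No match says only that these letters are not in the window.

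Neither co-receptor among the members passed the test. BOC, an immunoglobulin-type receptor that binds the ligand together with PTCH1, was at 120.2, 125.1 and 114.8 CPM in control and 115.4, 112.7 and 121.0 CPM in knockdown. Its log2 fold change was −0.05 (95% interval −0.141 to 0.049, edgeR adjusted p = 0.476). GAS1, a membrane-anchored co-receptor, was at 18.82, 16.00 and 17.51 CPM in control and 16.65, 18.51 and 17.28 CPM in knockdown (log2 fold change −0.01, 95% interval −0.213 to 0.198, edgeR adjusted p = 0.965). The libraries of the 2 groups were interleaved for both genes.

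SMO, the receptor-like protein that PTCH1 restrains, was at 166.1, 171.1 and 185.4 CPM in control and 170.9, 178.3 and 176.6 CPM in knockdown. The knockdown libraries lay inside the range of the controls. Its log2 fold change was 0.01 (95% interval −0.08 to 0.107, edgeR adjusted p = 0.848), the narrowest interval among the 8.

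**Figure D2:**
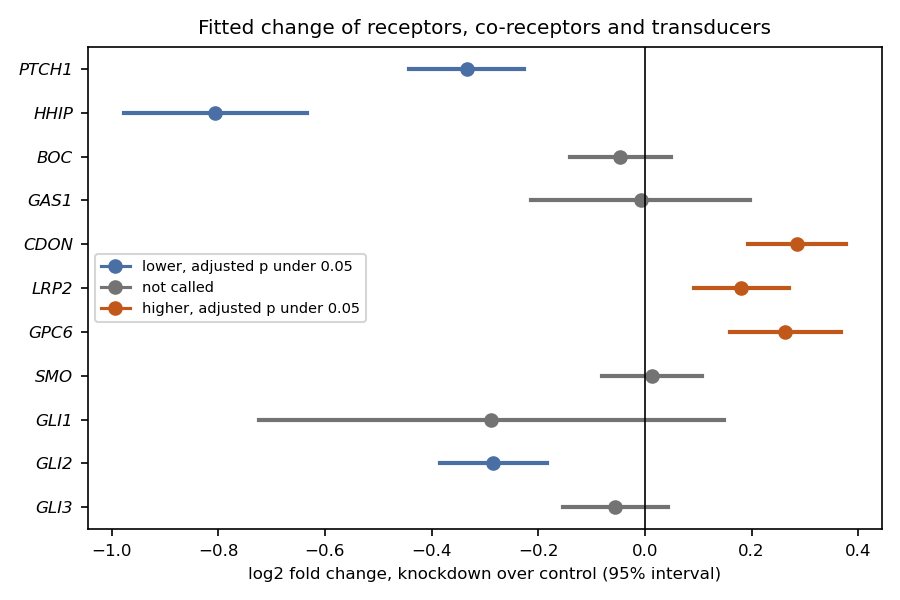
Fitted log2 fold changes (x axis, knockdown over control) with 95% intervals for the 8 tested members and for the co-receptors CDON, LRP2 and GPC6, which rose; blue marks lower, orange higher and grey not called. HHIP lies farthest from 0, at −0.81, and the interval of GLI1 is the widest, from −0.724 to 0.148.

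Of the GLI factors, GLI2 fell and the others did not pass. GLI2 was at 112.2, 114.4 and 119.9 CPM in the control libraries and at 88.59, 95.09 and 100.1 CPM in the knockdown libraries. The highest knockdown library was below the lowest control library. The level was 1.22-fold lower in knockdown (log2 fold change −0.28, SE 0.049, 95% interval −0.384 to −0.184, edgeR adjusted p = 3.62e-05). GLI2 (ENSG00000074047) is a plus-strand gene of chromosome 2, positions 120735623 to 120992653.

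GLI3 was at 264.6, 283.5 and 300.1 CPM in control and 255.7, 281.1 and 277.4 CPM in knockdown, and the groups overlapped. Its log2 fold change was −0.06 (95% interval −0.154 to 0.043, edgeR adjusted p = 0.401). GLI1, the factor that depends most on active signalling, was near the low end of what could be tested. The control libraries had 40, 29 and 32 counts, or 3.453, 3.314 and 4.484 CPM. The knockdown libraries had 32, 22 and 30 counts, or 3.351, 2.560 and 3.086 CPM, and overlapped with control. The log2 fold change of GLI1 was −0.29, close to that of GLI2 in size, but with an SE of 0.213 it did not pass (95% interval −0.724 to 0.148, edgeR adjusted p = 0.317). This interval holds both 0 and the change measured for PTCH1, so at this depth neither could be told from the other.

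The shares of the GLI genes in their summed counts, not divided by transcript length, were compared within each library. GLI2 took 29.5%, 28.5% and 28.3% of the summed GLI1, GLI2 and GLI3 counts in the control libraries and 25.5%, 25.1% and 26.3% in the knockdown libraries. GLI3 took 69.6%, 70.7% and 70.7% in control and 73.6%, 74.2% and 72.9% in knockdown. The groups did not overlap for either share. An exact two-sided permutation test of the mean GLI2 share gave p = 0.1, which is the smallest p that 3 against 3 libraries allow. The shares sum to a whole, so the higher GLI3 share mirrors the lower GLI2 share, while the mean level of GLI3 itself was 271.4 ± 13.7 CPM with the knockdown, below the 282.7 ± 17.8 CPM of the controls (SD, n = 3 each), a difference that did not pass. GLI1 took between 0.676% and 1.06% of these counts in all 6 libraries. With counts divided by transcript length, GLI2 took 33.2%, 32.2% and 31.8% in control and 28.9%, 28.6% and 29.8% in knockdown.

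**Figure D3:**
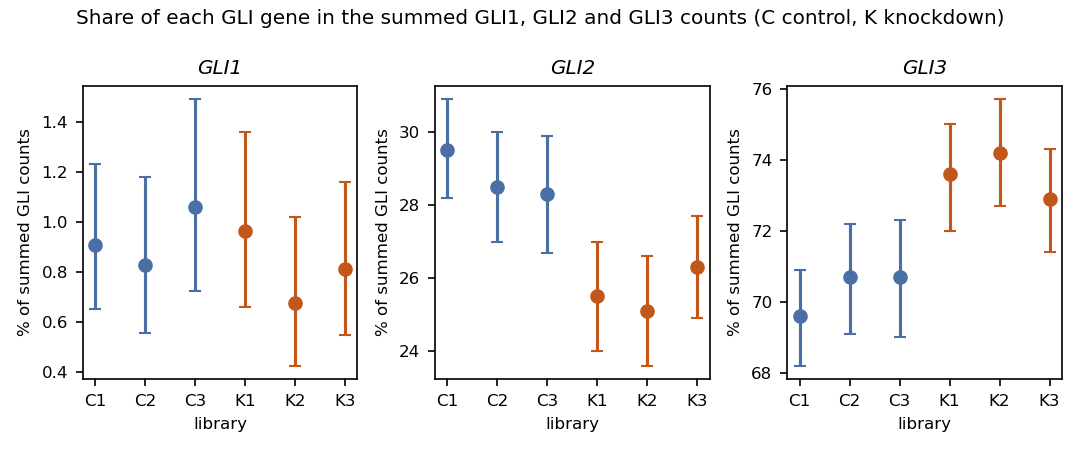
Share of GLI1, GLI2 and GLI3 (y axes, percent, not starting at 0) in their summed counts in control (C1 to C3, blue) and knockdown (K1 to K3, orange) libraries; bars are 95% exact binomial intervals and cover counting error only. GLI2 lies between 28.3% and 29.5% in control and between 25.1% and 26.3% in knockdown, with GLI3 shifted the other way.

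Levels can be compared between genes only per length, so CPM were divided by the kilobases of the longest coding transcript in GENCODE v29. On this scale SMO was highest in control, at 46.6 ± 2.7 CPM per kilobase (SD, n = 3), followed by GLI3 at 34.4 ± 2.2 and BOC at 25.8 ± 1.1. GLI2 followed at 17.0 ± 0.58, PTCH1 at 10.4 ± 0.49, GAS1 at 6.17 ± 0.50, HHIP at 3.33 ± 0.21 and GLI1 at 1.04 ± 0.18 CPM per kilobase. SHH was last in both groups. The ranges of neighbours in this order did not overlap in control or in knockdown, and the order was the same. With all annotated exon bases as the length, GLI2 came before BOC and GAS1 before PTCH1, so those neighbours have no fixed order.

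Other genes of the pathway were taken from lists of ligand handling, receptors, transduction to GLI, targets and the primary cilium. Like the members, these lists were chosen with earlier results of these data known. Of 10 genes for ligands and their release, 8 were tested, 2 rose and 1 fell. That is 37.5% called, near the 33.3% of all tested genes. SCUBE3, of a family that helps release lipid-bearing ligand, rose from 117.1 ± 3.10 to 143.8 ± 1.99 CPM (SD, n = 3 each), or by 0.30 on the log2 scale (edgeR adjusted p = 3.25e-06). ADAM17, a membrane protease, rose from 91.03 ± 5.37 to 106.7 ± 0.35 CPM. DISP3, listed under its older symbol PTCHD2 and related in sequence to the ligand-releasing DISP1, fell from 5.52 ± 0.623 to 3.25 ± 0.501 CPM. DISP1 itself had a log2 fold change of 0.03 that did not pass (edgeR adjusted p = 0.755).

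Of 10 further receptors and co-receptors, 9 were tested, 3 rose and none fell (0 lower by edgeR and by DESeq2). The share called was 33.3%, as among all tested genes, of which 15.3% were higher. CDON, the relative of BOC that also binds the ligand, was at 173.8, 191.7 and 181.0 CPM in control and 226.5, 220.1 and 218.5 CPM in knockdown. All knockdown libraries were above all controls (0.29 on the log2 scale, SE 0.0448, edgeR adjusted p = 9.05e-06). The glypican GPC6 rose from 79.28 ± 2.59 to 94.88 ± 5.63 CPM and LRP2, an endocytic receptor that binds SHH, from 225.9 ± 5.24 to 255.9 ± 9.08 CPM (SD, n = 3 each). With the replicate number as a block, 5 were higher, while the count over all 13632 tested genes went from 2084 to 2458 higher. Whether CDON and BOC differ in their change was not tested. Genes on the opposite strand share 26.71% of the exon bases of CDON.

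Between SMO and the GLI proteins, 4 of 37 tested genes rose and 8 (21.6%) fell, beside 18.1% lower among all tested genes. The 8 became 5 by DESeq2, at an adjusted p under 0.01 or without knockdown replicate 2. Over all tested genes, the 2461 lower became 1695, 1719 and 2046 under these settings. BTRC, the ubiquitin ligase adaptor for processing of GLI proteins, rose from 91.12 ± 4.04 to 113.9 ± 3.9 CPM (log2 fold change 0.33, edgeR adjusted p = 2.54e-06). The casein kinases CSNK1D and CSNK1A1, which phosphorylate GLI proteins and SMO, rose by 0.20 and 0.15 on the log2 scale, though another annotated gene on the same strand shares 37.41% of the exon bases of CSNK1A1. ARRB1, a β-arrestin, had a log2 fold change of 0.17 and lost its call without control replicate 2 (edgeR adjusted p = 0.0513). PRKACA, the catalytic subunit of protein kinase A that primes GLI proteins for processing, fell from 169.7 ± 5.20 to 146.5 ± 4.80 CPM (SD, n = 3 each). GPR161, a ciliary receptor that raises protein kinase A activity, and GNAS, the stimulatory G protein subunit, each fell by 0.21 on the log2 scale. MTSS1, an actin-binding protein, fell by 0.43 and the ubiquitin ligase gene SMURF1 by 0.18. SUFU, the main cytoplasmic inhibitor of GLI proteins, was at 78.82 ± 3.43 and 79.81 ± 2.25 CPM and did not pass (0.02 on the log2 scale, edgeR adjusted p = 0.742). The list median was −0.03.

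Of 32 genes on the target list, 23 were tested, 9 fell and 3 rose, with a median log2 fold change of −0.23. That is 39.1% lower, beside 18.1% of all tested genes. FOXC1, a forkhead factor, was at 60.86, 60.11 and 64.03 CPM in control and 39.48, 41.08 and 40.01 CPM in knockdown (−0.61 on the log2 scale, SE 0.0588, edgeR adjusted p = 1.13e-09). The survival gene BCL2 fell by 0.65, CCND2 (cyclin D2) by 0.39, the mitotic factor FOXM1 by 0.36 and SPP1 (osteopontin) by 0.40 on the log2 scale. These genes have many other regulators, and the list is not specific to Hedgehog signalling. Those that rose were SNAI2, CDK6 and SFRP1, by 0.15 to 0.21 on the log2 scale, and SFRP1 lost its call without control replicate 1 (edgeR adjusted p = 0.0571) or knockdown replicate 2 (edgeR adjusted p = 0.0529). CCND1 and MYCN, 2 much used targets, did not pass (−0.02 and −0.13 on the log2 scale, edgeR adjusted p = 0.824 and 0.0774).

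The targets of the ventral neural tube were mostly near 0. FOXA2, NKX2-2 and NKX2-1, which mark floor plate, ventral progenitors and ventral forebrain, were listed at 0 in all 6 libraries. NKX6-1 had 1.69 ± 0.860 CPM in control and 1.76 ± 0.109 in knockdown, and OLIG2 1.48 ± 0.803 and 1.01 ± 0.240 CPM (SD, n = 3 each), with neither called (edgeR adjusted p = 0.976 and 0.201). OLIG1 is named after its values were seen: it was at 6.216, 5.256 and 7.566 CPM in control and 2.304, 4.074 and 2.469 CPM in knockdown. This was the lowest change on the list, −1.10 on the log2 scale (SE 0.209, edgeR adjusted p = 0.000121). Of 12 genes of the dorsal neural tube, 4 were tested, and ZIC1, ZIC2 and PAX3 did not pass (edgeR adjusted p = 0.458, 0.488 and 0.809). MSX1, a dorsal homeobox gene, rose from 4.86 ± 0.845 to 6.47 ± 0.644 CPM (SD, n = 3 each), or by 0.44 on the log2 scale (edgeR adjusted p = 0.0483). That call was lost by DESeq2 (adjusted p = 0.196), once length and GC trends were taken out (edgeR adjusted p = 0.0592) and without control replicate 1, knockdown replicate 1 or knockdown replicate 2 (edgeR adjusted p = 0.31, 0.163 and 0.111). Of 8 genes of the intermediate neural tube, 4 were tested, 2 fell and none rose (0 by edgeR, with all 4 log2 fold changes below 0). Among all tested genes, 18.1% fell. GBX2, a homeobox gene, fell from 196.5 ± 8.80 to 161.4 ± 4.80 CPM (SD, n = 3 each), or by 0.28 on the log2 scale (edgeR adjusted p = 1.12e-05). IRX5 was at 17.53 ± 1.2 and 14.49 ± 1.68 CPM, with overlapping libraries (edgeR adjusted p = 0.0473), and lost its call by DESeq2 (adjusted p = 0.169) and with upper-quartile or library-size scaling (edgeR adjusted p = 0.0589 and 0.0736). It was also lost without control replicate 1 or 2 or knockdown replicate 2 or 3 (edgeR adjusted p = 0.108, 0.154, 0.196 and 0.112). PAX6 and IRX3 did not pass (edgeR adjusted p = 0.228 and 0.457).

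Of 60 genes of the primary cilium, the organelle in which vertebrate Hedgehog signalling takes place, all were tested, 21 rose and 8 fell, beside 15.3% higher and 18.1% lower among all tested genes. The median log2 fold change was 0.12. TCTN1 and TCTN3, parts of the transition zone that controls entry into the cilium, rose from 38.28 ± 2.77 to 48.18 ± 2.11 CPM and from 101.8 ± 4.33 to 124.0 ± 1.45 CPM (SD, n = 3 each). BBS1 and TTC8, subunits of the BBSome that moves ciliary receptors, rose by 0.33 and 0.32 on the log2 scale, and the small GTPase gene ARL3 by 0.22. A gene on the same strand shares 53.88% of the exon bases of BBS1. KIAA0586, a centriole protein needed to form cilia, fell by 0.32, TTC21B, of the retrograde transport complex, by 0.24, and IFT46 by 0.28 on the log2 scale. FUZ had a log2 fold change of −0.31, and its call was lost without control replicate 2 (edgeR adjusted p = 0.0525). By DESeq2, 17 of the 60 were higher and 5 lower, beside 1170 higher and 1695 lower of all 13632 tested genes. The 8 lower also became 5 at an adjusted p under 0.01 and without control replicate 3 or knockdown replicate 1. Over all tested genes, the 2461 lower became 1719, 2161 and 1949 under these 3 settings.

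**Figure D4:**
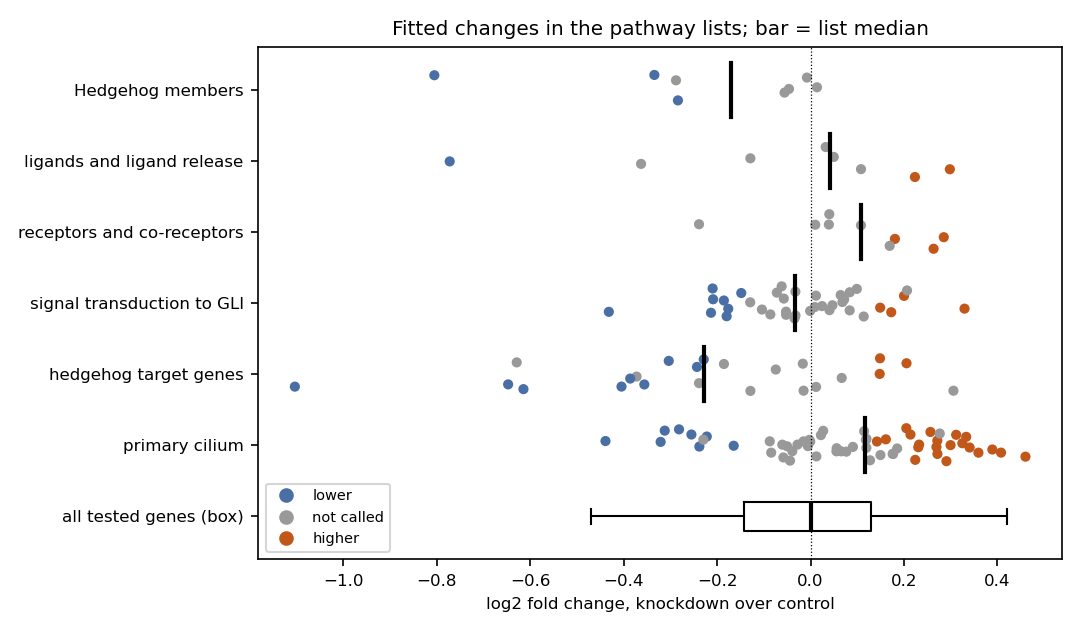
Fitted log2 fold changes (x axis, knockdown over control) of the tested genes of each list; points are genes (blue lower, orange higher, grey not called, vertical jitter only), black bars list medians, and the box shows the middle 50% of all tested genes with whiskers at the 5th and 95th percentiles. The target list has its median at −0.23 and the cilium list at 0.12, while the median of all tested genes is 0.00.

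Markers of other cell types also differed between the groups, as did many genes: 18.1% of all tested genes were lower and 15.3% higher. The summed level of 12 neuron markers was between 959 and 1010 CPM in control and between 853 and 896 CPM in knockdown, with 3 of 8 tested lower and 1 higher. For 10 fibroblast and mesenchymal markers it was between 1260 and 1340 CPM and between 1220 and 1260 CPM, with 5 of 10 lower and 1 higher, and none of these 10 is at 0. For 10 astrocyte and oligodendrocyte markers it was between 266 and 277 CPM and between 216 and 220 CPM, with 3 of 5 tested lower. For 10 endothelial and leukocyte markers it was between 142 and 149 CPM and between 95.9 and 108 CPM, with 3 of 5 lower. For 7 pluripotent cell markers it was between 531 and 536 CPM in control and between 635 and 693 CPM in knockdown, with 1 of 3 tested higher and 1 lower. LIN28A alone was higher there, from 303.6 ± 6.83 to 456.8 ± 25.4 CPM, while POU5F1 fell from 59.08 ± 2.28 to 45.69 ± 4.02 CPM and DPPA4, at 171.3 ± 3.37 and 169.9 ± 7.95 CPM, did not pass (SD, n = 3 each; edgeR adjusted p = 0.85). The defining markers STMN2, ELAVL4, GFAP, SOX10, CD3E, UTF1 and TDGF1 were listed at 0 in all 6 libraries. The part of these markers in the results for HHIP, PTCH1 and GLI2 was not tested.

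A 7-base word, TCATCCA, had been singled out in an earlier analysis of these counts. Of 1447 tested genes whose longest 3′ UTR holds it, 38.7% were lower, against 16.0% of 10610 genes without it. The word came from these same counts, so this difference is not independent support for it. The longest 3′ UTRs of HHIP, PTCH1 and GLI2 do not hold the word, and neither do those of BOC, GAS1, SMO and GLI3. Of the members, GLI1 holds it, beside 12% of the tested genes that were searched, so most genes lack it. On the target list, BCL2 and CCND2 hold it, and 7 of the 21 targets without it were lower, with a median log2 fold change of −0.19. The part of the word in the results for the members and targets was not tested.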

How the data were processed

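RNA of 3 control and 3 knockdown samples was measured, grouped by sample title. Per the labels' protocols, directional libraries were made from total RNA. Trim Galore 0.6.6, STAR 2.7.10a, bedtools and build hg38 are named in the submitters' processing notes; how reads were counted, with which strand setting and annotation, was not given in the sources used here. Each sample has a table, deposited by the authors, of whole-number read counts per gene symbol, not normalised.

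Genes were filtered with filterByExpr and scaled by TMM, and the 2 groups were compared in edgeR 4.0.16 (R 4.3.3; quasi-likelihood test, no covariates); p-values were adjusted over all 13632 tested genes. CPM use TMM-adjusted library sizes. Intervals of fold changes use the t distribution and the SE, the size of the log2 fold change over the square root of F. Intervals of counts cover counting error only. Within each group, pairs of libraries had chi-square values per degree of freedom from 1.248 to 2.055, so none agreed within sampling noise.

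Members and lists were chosen with earlier results of these data known. All 9 members are named, with the called genes of the 5 lowest p-values in each direction on each pathway list, and every called gene of the ligand and receptor lists. HHIP-AS1, OLIG1, DISP1, the named neural tube and marker genes and the other named genes that were not called are outside this rule and were chosen after their values were seen. Some genes of the lists are counted but not reported by name here. For 7 list symbols, the older symbol in the tables was found through RefSeq synonyms. Other settings were no filter or a minimum of 1 CPM, scaling by library size, by upper quartile or by RLE, DESeq2 1.42.0, limma-voom (limma 3.58.1), the replicate block, leaving out each library, and adjusted p under 0.01. A fit with length and GC trends taken out of every library (loess, span 0.5) was chosen after seeing the data. The test was tested on simulated data. Figures used Matplotlib 3.10.9.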

Additional observations from a re-analysis of the deposited data

How the results depend on the processing

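HHIP, PTCH1 and GLI2 were called lower under each of the 15 other settings tried and at an adjusted p under 0.01. The count of called members was 3 throughout. Log2 fold changes ranged from −0.83 to −0.73 for HHIP, from −0.38 to −0.28 for PTCH1 and from −0.32 to −0.23 for GLI2. GLI1, GLI3, SMO, BOC and GAS1 were called under none of them, with a lowest adjusted p of 0.133, for GLI3. Changed signs were all near 0: GLI3 was at 0.01 with the length and GC trend removed, and SMO at −0.02 without control replicate 1. GAS1 was at 0.00 with upper-quartile scaling, 0.01 with library-size scaling, and between −0.06 and 0.06 when 1 library was left out, above 0 without control replicate 1 (0.06) or knockdown replicate 1 (0.03) and at 0.00 without knockdown replicate 3.

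The correlations gave no clear pairing of libraries by replicate number. Deviations from the group means correlated at 0.079, 0.005 and 0.071 for numbers 1 to 3. Control replicates 1 and 3 correlated best with their own number, and control replicate 2 with knockdown replicate 1 (0.039). With the replicate number as a block, 5248 of all genes were called rather than 4545, and 5 receptors and co-receptors rather than 3; the members' calls were the same. DESeq2 called 2865 of all genes, and an adjusted p under 0.01 left 2943. Causes of these differences were not tested. Low counts limit GLI1 and the ligands.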

Other observations

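The GACCACCCA word was also counted over all tested genes with a promoter window. Of 33 tested genes with the word in a window, 7 were lower in knockdown and 5 higher, and their median change was −0.04 on the log2 scale. Of 10097 tested genes with windows that lack it, 18.5% were lower, with a median of 0.00. PTCH1 is among the 33, of which 21.2% were lower.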
